A study of Mus musculus with 2 samples.

Results

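The genes described here anchor basal epithelial cells to the basement membrane through hemidesmosomes and laminin-332. They were chosen by symbol as a list of 9: the integrin subunits Itga6, Itgb4, Itga3 and Itgb1, the transmembrane collagen Col17a1, the laminin chains Lama3 and Lamb3, the plakin Dst and the tetraspanin Cd151. The platform annotation used here gave a probe for 8 of them, out of 16593 genes measured, and Lama3 was not analysed here. These 8 genes had 20 probes, of which 15 were detected on both arrays, 1 on the knockout array only and 4, all of Dst, on neither. Detection means here that the deposited detection p-value, which sets a probe against the negative control beads of its array, was under 0.01.

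Hemidesmosomes are the junctions by which basal cells of stratified epithelia hold on to the matrix below them. The integrin that pairs the subunits α6 and β4 binds laminin-332 outside the cell, and inside the cell the plakins plectin and dystonin tie it to the keratin filaments of basal cells. Loss of laminin-332, of either subunit of this integrin or of collagen XVII causes blistering in humans and mice, and defects of enamel are part of several of these human diseases. In the mouse incisor the cervical loop holds the dental epithelial stem cells, and ameloblasts descend from its basal layer.

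The cells were dental epithelial stem cells of C57/BL6 mice aged 3 months, taken from the labial cervical loop and grown for 7 days without passage in medium with EGF and FGF, at a density that lets single stem cells form colonies. The control carried Med1 fl/fl alone, and the knockout carried Med1 fl/fl with Cre driven by the Krt14 promoter, so both genotypes held the loxP-flanked allele and only cells with Krt14 promoter activity could lose Med1, a subunit of the Mediator complex. The cells came from 3 knockout mice and 3 littermate controls. Each genotype has 1 array, so every value is a single measurement with no replicate check and no test between genotypes, and whether the RNA of the 3 mice was pooled is not stated. The study's title places the comparison in the question of epidermal fate after loss of Med1.

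Detection held for 43.1% of the 25697 probes in the control and for 42.6% in the knockout. Med1 itself read 914 and 412 in its brightest probe, 2.81-fold lower on the knockout array after normalization. A dimmer Med1 probe detected on both read 273 and 251, a difference of -0.28 that is below the between-probe SD given below, and the other 2 were not detected. Whether these probes lie inside the deleted part of Med1 was not settled here, and a probe outside it does not check the genotype. The basal keratin Krt14, whose promoter drives the Cre, read 38349 in the control and 36803 in the knockout, and the basal transcription factor Trp63 was detected on both, so the labelled keratinocyte identity has its markers on both arrays. Transcripts of the sex chromosomes also differed. Xist was at least 37.9-fold higher (at least 13.1-fold by its other probe) and the Y-linked Eif2s3y 3.03-fold lower on the knockout array. Eif2s3y was detected on both arrays, at 2472.5 and 888.3, and Xist on the knockout array alone. A difference in the sex of the mice and the genotype thus cannot be told apart. Precision is known from probes alone. In the 1830 genes for which both arrays detected more than 1 probe, the knockout-minus-control difference varied between probes of a gene with a standard deviation (SD) of 0.31 on the log2 scale. Of all 8217 detected genes, 55.7% differed by more than this SD in either direction, as did 5 of the 8 anchoring genes. A difference beyond the SD thus does not set a gene apart from the others.

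Signals are given first as the mean bead signal before normalization, control and then knockout, in arbitrary units. Differences are knockout minus control in normalized log2 intensity after background correction. Where a gene had several probes, its brightest probe stands for it.

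Of the 8 anchoring genes, all detected on both arrays, 1 was at least 2-fold lower in the knockout, Itga6, and 0 were higher by that much. The background, over the 8217 genes that either array detected, was 6.52% lower and 8.35% higher by the same rule, and 1 in 8 is not far from it. The other 7 differed by less than 2-fold. The differences ran from -2.09 (Itga6) through -0.61 (Cd151), -0.55 (Lamb3), -0.42 (Itgb4), -0.23 (Itgb1), -0.22 (Col17a1) and 0.09 (Dst) to 0.78 (Itga3). Neighbours in the middle of this order, from Cd151 to Col17a1, lay closer to each other than the between-probe SD. The median was -0.33, or -0.23 without Itga6, against -0.06 over all detected genes, and 6 of 8 lay below 0, against 55.7% of all detected genes.

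**Figure D1:**
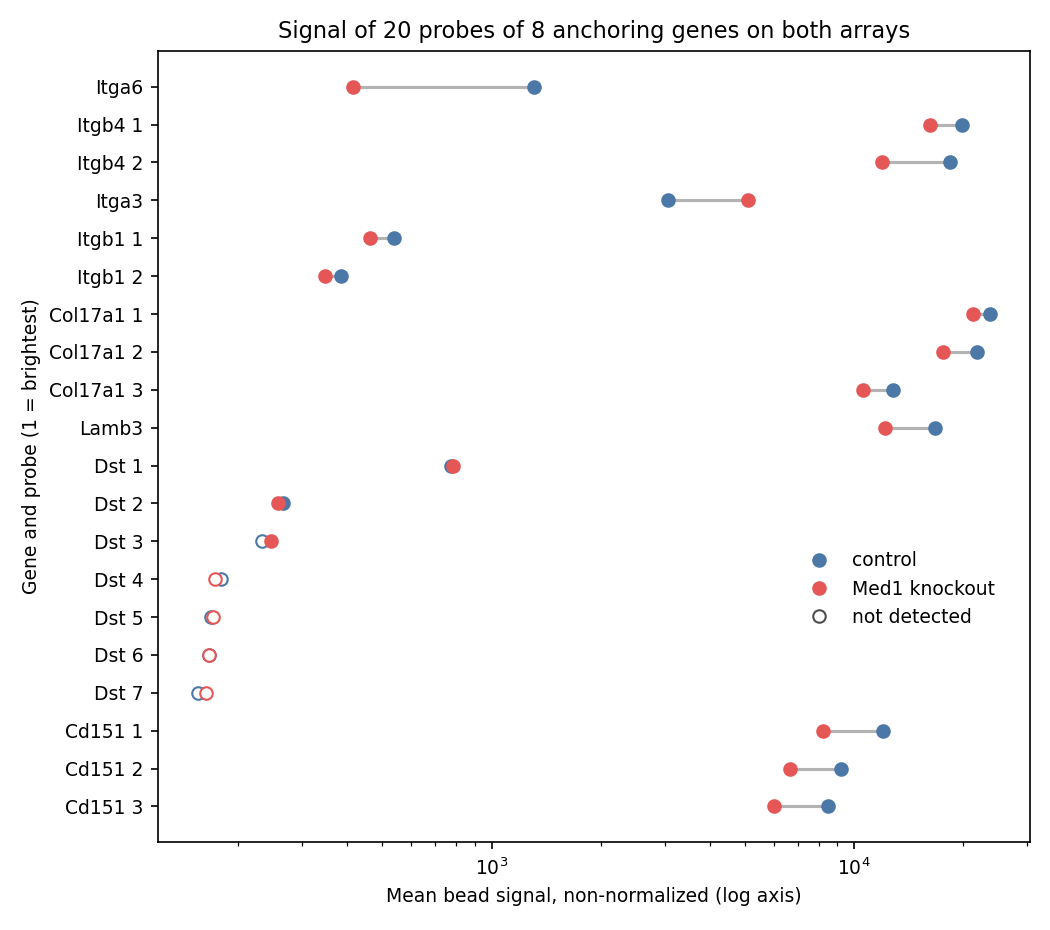
Mean bead signal (log axis, before normalization) of the 20 probes of 8 anchoring genes, control in blue and Med1 knockout in red, with open circles where a probe was not detected. Itga6 shows the widest gap, from 1312 to 414, Itga3 has the higher signal in the knockout, 5113 against 3058, and 4 Dst probes are open on both arrays.

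Itga6 encodes the α6 integrin subunit, which is also a surface marker used to sort basal epithelial cells. Its single probe read 1312 in the control and 414 in the knockout, on arrays whose median signals were 205.5 and 207. The normalized log2 levels were 10.13 and 8.05, a difference of -2.09, or 4.26-fold lower, and 1.39% of detected genes had a difference as low or lower. The size depends on the background correction, since the signals themselves differ 3.17-fold, but each of 7 other ways of processing gave at least 3.04-fold and at most 4.55-fold. Fewer cells that express Itga6 and less Itga6 RNA per cell cannot be told apart in RNA from whole cultures. No second probe was there to set beside it, so averaging detected probes, 1 of the 7 other ways, repeated the main value.

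Itgb4 encodes the β4 subunit, which pairs with no α subunit other than α6. Its probes read 19868 and 16241 for the brighter and 18397 and 11970 for the dimmer. Both were lower on the knockout array, by differences of -0.42 and -0.71, which put the knockout at 74.6% of the control level by the brighter probe. By brightest probes, the difference of Itga6 lay 1.67 log2 units below that of Itgb4, and the dimmer Itgb4 probe lay nearer to Itga6. Itga6 rests on 1 probe, and the between-probe SD does not measure the spread between genes of unlike brightness. Itgb4 was among the genes with a mean log2 level of at least 13, of which 1.28% were at least 2-fold lower. The share of all detected genes was 6.52%. Whether the RNA of the partners changed unequally was not tested.

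The α3 integrin subunit of Itga3 pairs with the β1 subunit of Itgb1, and this integrin also binds laminin-332 but sits outside hemidesmosomes, at focal adhesions and at cell-cell borders. Itga3 was the one member whose higher value in the knockout exceeded the between-probe SD. Its single probe read 3058 and 5113, a difference of 0.78, or 1.71-fold, and the 7 other ways of processing gave 1.67-fold to 1.75-fold. At a threshold of 1.5-fold it was the 1 member higher, against 14.6% of all detected genes. Itgb1 encodes the β1 subunit shared by many integrins. Its probes read 538 and 461, and 383 and 348, with differences of -0.23 and -0.15 that were both smaller than the between-probe SD. Between the α subunits the knockout-minus-control difference was 2.86 log2 units apart, with Itga6 low and Itga3 high.

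Laminin-332 is the ligand of both integrins, and Lamb3 encodes its β3 chain. Its probe read 16767 and 12186, a difference of -0.55, or 1.46-fold lower on the knockout array, and the other ways of processing gave 1.34-fold to 1.46-fold. This is larger than the between-probe SD, which 55.7% of all detected genes exceeded, and smaller than the 1.5-fold threshold.

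Col17a1 encodes collagen XVII, the transmembrane collagen of hemidesmosomes, which is also known as a maintenance factor of hair follicle and epidermal stem cells in the mouse. Its 3 probes read 23733 and 21308, 21823 and 17617, and 12816 and 10590. All were lower on the knockout array, with differences of -0.22, -0.42 and -0.37, so the probes of this gene straddle the between-probe SD.

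Dst encodes dystonin, whose epithelial isoform BPAG1e is the plakin of hemidesmosomes, while longer isoforms serve neurons and muscle. Its 7 probes read from 155 to 772 on the control array and from 163 to 781 on the knockout array. The brightest read 772 and 781, a difference of 0.09, and the second 266 and 258, a difference of -0.10. A further probe was detected in the knockout alone, at 232 and 246. None of the 7 differed by as much as the between-probe SD. The sources used here do not say which isoforms the probes read, so the epithelial isoform is not separately measured.

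Cd151 encodes a tetraspanin that binds the laminin-binding integrins α3β1 and α6β4 side by side in the membrane. Its 3 probes read 11984 and 8218, 9213 and 6667, and 8492 and 6000. The differences were -0.61, -0.53 and -0.57, with an SD of 0.04 between probes, and the knockout stood at 65.4% of the control by the brightest. With Itga6, Cd151 was 1 of 2 members at least 1.5-fold lower, against 16.4% of all detected genes.

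**Figure D2:**
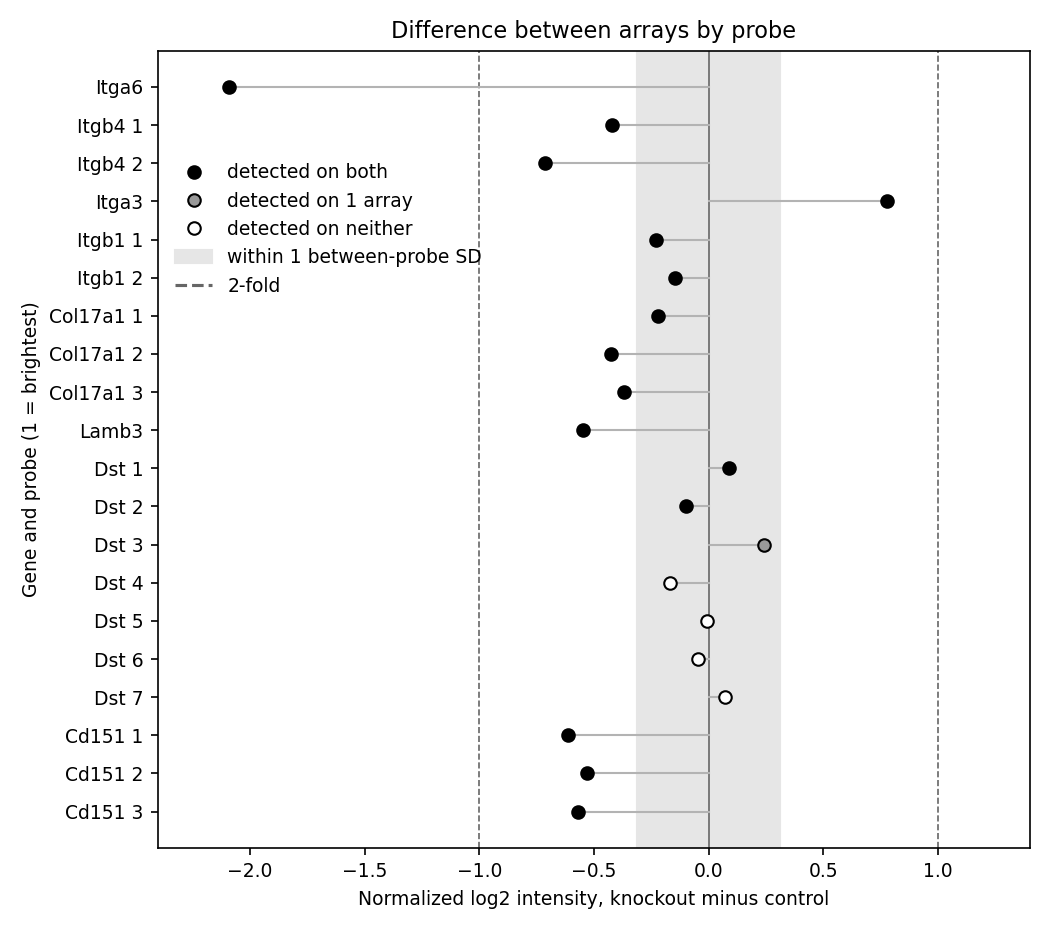
Knockout-minus-control difference of normalized log2 intensity for each probe, with the band of 1 between-probe SD (0.31) in grey and 2-fold as dashed lines. The 11 probes of Itgb4, Itgb1, Col17a1, Lamb3 and Cd151, a group without the 2 members above 0 (Itga3 and Dst), all lie left of 0. All 7 Dst probes lie within the band.

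Probes of the same gene thus pointed the same way wherever more than 1 was detected on both arrays, except for Dst. Of the 15 member probes detected on both arrays, 13 were lower and 2 higher on the knockout array, those 2 being the probe of Itga3 and the brightest of Dst. Genes with several probes enter this count more than once, and the share over all probes was not computed. By gene, 6 of 8 lay below 0, against 55.7% of all detected genes. The 11 probes of the 5 genes Itgb4, Itgb1, Col17a1, Lamb3 and Cd151 ranged from -0.71 to -0.15. This group leaves out Itga6 and the 2 members above 0, Itga3 and Dst, so the shared direction of its genes follows from that choice. Since every probe saw the same pair of RNA samples, such a comparison sets probes against each other and does not replicate the genotypes. Col17a1, Itgb4, Lamb3 and Cd151 were among 390 genes with a mean log2 level of at least 13, a class set after the values were seen. The quartiles of the difference over these bright genes were -0.18 and 0.14, and each of the 4 lay below the lower one.

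**Figure D3:**
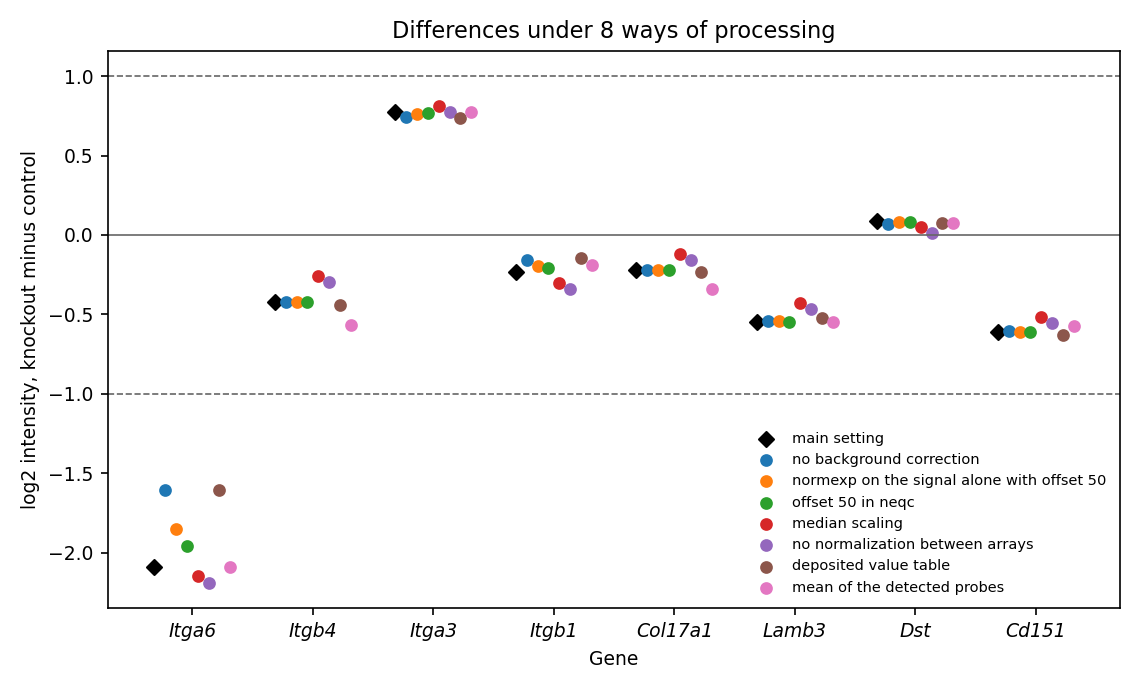
Knockout-minus-control log2 difference of each member by its brightest probe under the main setting (diamonds) and 7 alternatives (circles, the last averaging a gene's detected probes), with 2-fold as dashed lines. Every member kept its sign, Itga6 moved from -2.19 to -1.60, and the 7 other members stayed within 2-fold.

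The start-site sequences of Itga3, the 1 member at least 1.5-fold higher in the knockout, of Cd151, whose probes were the most uniform, and of Col17a1 are shown to set genes of opposite or unequal difference side by side. RefSeq windows on GRCm38.p6 run from 250 bases before an annotated start through the first 50 bases after it, and were given for 6 of the members, in 10 windows. Capitals mark a GC box, a TATA box or an AP-1 site, each searched on both strands, and their letters are spelled out with the counts that follow the sequences.
Itga3, chr11:95076665-95076964, minus strand: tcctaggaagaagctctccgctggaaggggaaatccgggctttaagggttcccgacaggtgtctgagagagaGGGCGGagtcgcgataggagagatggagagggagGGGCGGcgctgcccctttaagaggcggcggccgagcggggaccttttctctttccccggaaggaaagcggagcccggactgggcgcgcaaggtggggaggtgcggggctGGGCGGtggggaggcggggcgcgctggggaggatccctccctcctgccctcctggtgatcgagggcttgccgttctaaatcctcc
Cd151, chr7:141467112-141467411, plus strand: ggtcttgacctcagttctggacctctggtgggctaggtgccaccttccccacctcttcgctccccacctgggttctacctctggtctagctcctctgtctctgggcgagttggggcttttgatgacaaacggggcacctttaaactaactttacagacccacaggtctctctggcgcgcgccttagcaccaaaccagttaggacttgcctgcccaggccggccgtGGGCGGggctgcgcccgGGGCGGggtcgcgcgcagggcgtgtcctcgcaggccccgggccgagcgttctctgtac
Col17a1, chr19:47691993-47692292, minus strand: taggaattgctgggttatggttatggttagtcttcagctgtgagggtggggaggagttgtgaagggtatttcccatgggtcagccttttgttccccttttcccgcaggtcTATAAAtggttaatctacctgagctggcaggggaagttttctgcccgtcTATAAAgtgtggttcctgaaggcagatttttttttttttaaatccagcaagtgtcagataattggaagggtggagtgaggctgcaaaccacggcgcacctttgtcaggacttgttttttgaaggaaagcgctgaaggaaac

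The windows of Itga3 (3 matches) and Cd151 (2 matches) both hold GC boxes, with the letters GGGCGG, although the former gene was higher and the latter lower on the knockout array. GC boxes occur in 35.7% of the 32851 windows in the table and in 5 of the 10 of the members. The Col17a1 window holds 2 TATA boxes, with the letters TATAAA, and no GC box, and it was the 1 member window with a TATA box, against 13.6% of all windows. An AP-1 site, with the letters TGANTCA, was found in 1 member window, at a second annotated start of Itga3, against 7.81% of all windows. No match to one motif overlapped a match to another in the printed windows. A match is a string of letters and not a shown binding site.

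Inside the cell the α6β4 integrin is linked to keratin through plectin, and the keratins of basal cells are Krt5 and Krt14. Plec read 15434 and 12743 in its brightest probe, a difference of -0.39, with 2 other detected probes at -0.61 and -0.08. Krt5 read 22154 and 10163, which was 2.33-fold lower on the knockout array, while its partner Krt14 differed by -0.10. In the list of plakins and basal keratins, 6 of 8 genes were measured and detected, with 2 at least 2-fold higher, 1 lower and a median of 0.27. The higher genes were Krt15, a keratin of basal and stem cells (4.81-fold), and Ppl, which encodes periplakin, a plakin of the cornified envelope and desmosomes (3.38-fold, a log2 difference of 1.76, with its other probe at 2.80). The plakins thus did not share a direction, with Ppl higher and Plec, Dst and Eppk1 within 2-fold. Eppk1, added here, read 5305 and 8609, a difference of 0.65, and no probe was found for Evpl and Macf1.

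Among the other laminin chains, 5 of 7 measured were detected, 1 was at least 2-fold higher, 0 were lower and the median was 0.20. Lamb1, the β1 chain of most basement membranes, was detected in the knockout alone, where it was at least 2.09-fold higher. The β2 chain Lamb2 (0.20) and the γ1 chain Lamc1 (-0.14), with which many other laminins are built, differed by less than the between-probe SD. Of the other integrin subunits, 8 of 19 measured were detected, 1 was at least 2-fold higher, 0 were lower and the median was 0.18. It was Itga11, the collagen-binding α11 subunit known from fibroblasts, which read 681 and 1191 and was 2.09-fold higher, while its other detected probe, at a log2 difference of 0.82, did not reach 2-fold. The subunits Itgb6 (0.15), Itgav (0.21) and Itgb5 (0.02) are added here and were within the between-probe SD, as were the 2 other detected Itgb6 probes (-0.29 and 0.23). Also added here, Itga1 (-0.33), Itga5 (-0.33, with its other probe at -0.08), Itga2b (0.36) and Itga7 (0.47, detected in the knockout alone) were beyond it. No detected integrin subunit other than Itga6 was lower by 2-fold.

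Of 20 other basement membrane genes measured, 13 were detected, with 2 at least 2-fold higher, 1 lower and a median of 0.47. Col7a1 encodes collagen VII, the anchoring fibril collagen that binds laminin-332 from the dermal side. It read 4566 and 2053 and was 2.30-fold lower, with its other probe at -1.33. Nid1, the linker protein nidogen-1, was seen in the knockout alone (at least 3.33-fold higher), and Fbln1, encoding fibulin-1, was 2.14-fold higher with other probes at 1.45 and 1.91. Among 14 laminin receptors and laminin-cleaving proteases, 10 were detected, with 1 at least 2-fold higher, 1 lower and a median of -0.09. Mmp2, a gelatinase that can cleave laminin-332, was 10.1-fold higher, and Bmp1, a protease that processes laminin-332 and collagen VII, was 2.11-fold lower, with 3 other probes from -1.22 to -0.80.

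Among 18 integrin activation and focal adhesion genes measured, 13 were detected, with 1 at least 2-fold higher, 2 lower and a median of 0.00. Fermt1 encodes kindlin-1, which activates β1 integrins in keratinocytes and whose loss causes a human blistering disease. It read 1501 and 415.5, a difference of -2.31 beside the -2.09 of Itga6. Its relative Fermt2, encoding kindlin-2, was 2.55-fold higher, from 380 to 691, and Tns4, a tensin of epithelial adhesions, was 2.64-fold lower. The probe of Tln1, the talin used by nearly all cells, was not detected on either array, at 196 and 210. Of the other tetraspanins, 11 of 18 measured were detected and 0 passed 2-fold in either direction, with a median of -0.14, 8 below 0 and 3 above. Cd151 (-0.61) lay below each of them, the lowest being Tspan14 at -0.46, which was added here. The basal regulators gave 7 detected of 7 measured, with 0 higher, 1 lower and a median of -0.31. That gene was Sox9, a transcription factor of dental and hair stem cells (2.04-fold lower), and Trp63, a known activator of hemidesmosome genes, was added here at -0.38. The median of this list was the brightest probe of Tfap2c, added here, whose 2 other detected probes differed by -0.42 and 1.35. Averaging the detected probes of each gene moved the list median to -0.05, beside -0.06 over all detected genes under that setting.

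**Figure D4:**
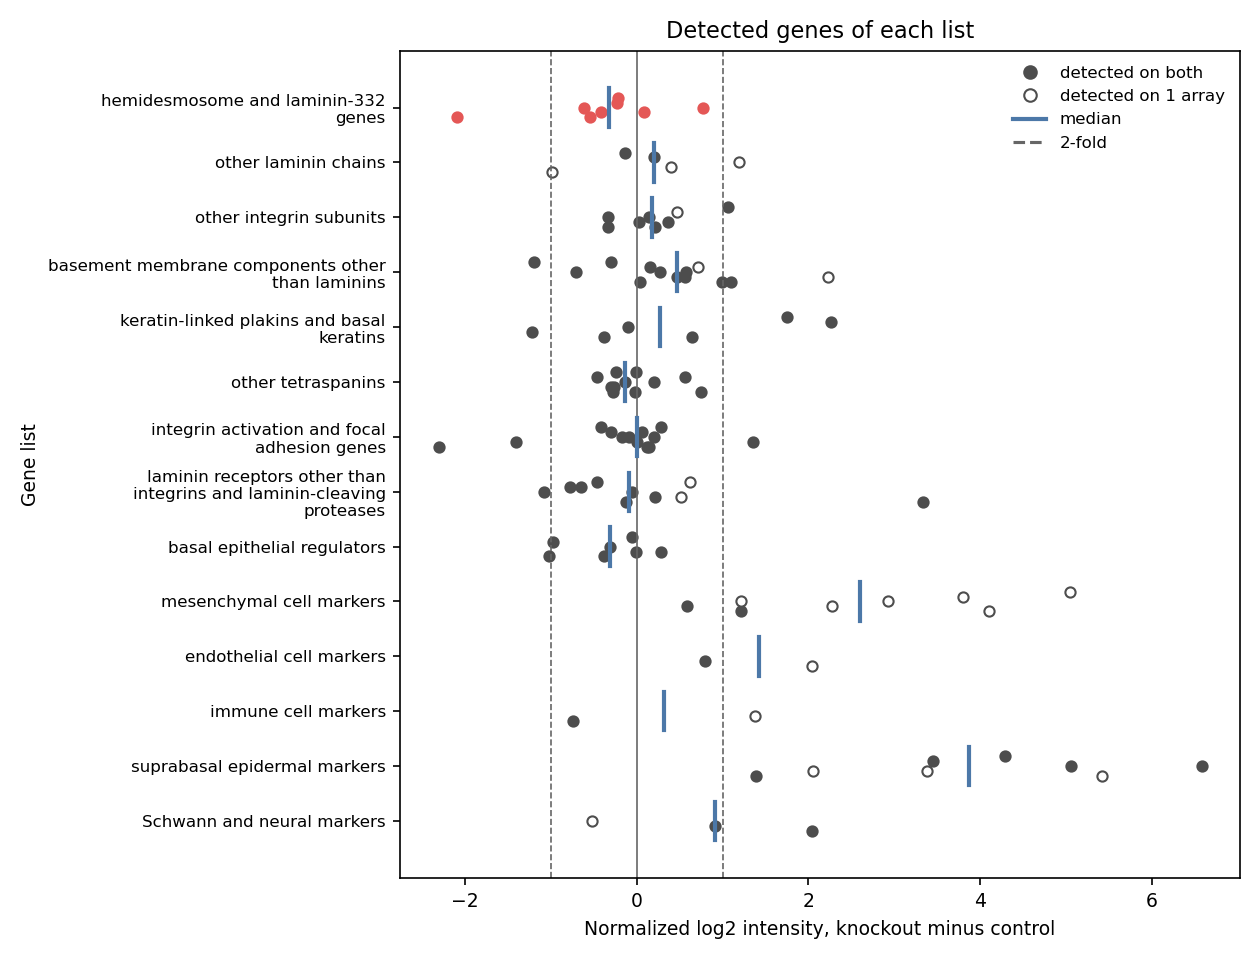
Knockout-minus-control difference of normalized log2 intensity of the detected genes of each list, 1 point a gene, with open circles for genes detected on 1 array and a blue bar at the median. The anchoring genes (top, red) have a median of -0.33, while the suprabasal markers have a median of 3.87 and all lie beyond 2-fold on the higher side.

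The detected markers of suprabasal and mesenchymal cells were all higher on the knockout array, while the endothelial, immune and neural lists had few detected genes. All 8 detected of 10 suprabasal epidermal markers passed 2-fold upward in the knockout, 7 of them also by their lower bounds. The summed normalized intensity of all 10 measured was 2632 in the control and 46451 in the knockout. Krt1 and Dsg1a were not detected. The leading ones were the corneodesmosome gene Cdsn (95.7-fold, a log2 difference of 6.58, with its other probe at 5.84), the calmodulin-like Calm4 (at least 20.9-fold), the cornified envelope gene Lor (33.2-fold) and Krtdap (19.6-fold). Suprabasal cells lie above the basement membrane and have no hemidesmosomes. The part of these markers in the lower values of Itga6, Cd151 and Lamb3 was not tested.

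Of 13 mesenchymal markers measured, 8 were detected, 7 passed 2-fold upward (5 also by their lower bounds) and 0 downward. Summed normalized intensities of all 13, undetected ones included, were 11513 and 20752. Most of both sums came from Sparc, added here, which read 10084 and 16288, a difference of 0.59, with its other probe at 0.44. Thy1 (at least 15.7-fold), Col1a1 (at least 8.82-fold), Lum (at least 7.14-fold) and Dcn (at least 3.49-fold, with its other probe at a log2 difference of 1.60) led, while Col1a2, Pdgfra, Pdgfrb, Postn and Prrx1 were not detected on either array. Itga11, Lamb1, Nid1, Fbln1, Fermt2 and Mmp2, named above as higher, are also expressed by fibroblasts, and the part of such cells in their values was not tested. The endothelial list had 2 of its 8 markers detected, Flt1 (higher by at least 1.82-fold) and Egfl7 (added here, 0.80, with its other probes at -0.02 and 0.81), while Pecam1, Cdh5 and Kdr were not. Their median over these 2 was 1.42, or 0.83 with lower bounds, 0.68 without background correction and 0.20 over all 8. The summed normalized intensities of all 8, undetected ones included, were 745 and 1211. Of 7 immune markers 2 were detected, Coro1a (at least 1.49-fold higher) and Cd14 (added here, -0.74), and Ptprc was not. Their median was 0.32, or -0.08 with lower bounds, and the sums over all 7, undetected ones included, were 372 and 387. Of 4 Schwann and neural markers 3 were detected, with 1, Mbp, at least 2-fold higher (4.12-fold, a log2 difference of 2.04, with its other probe at 1.27), and sums over all 4 of 532 and 1446. Their median was 0.91, or 0.48 from the deposited values and 0.37 over all 4. Dst and Itgb4 are also expressed by Schwann cells, and the part of such cells in their values was not tested.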

How the data were processed

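RNA of cultured dental epithelial stem cells was hybridised to Illumina bead arrays, 1 array for each genotype, with biotin label read by Cy3-streptavidin, per the labels' protocols. Per the file headers, the authors deposited each probe's mean bead intensity without normalization, and its detection p-value. No background seems to have been subtracted, with lowest signals of 133 and 138.5. The submitters' processing notes name GenomeStudio 2011.1. A deposited value table of intensities with a shared distribution served as an alternative, and the sources used here do not give its normalization.

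Background was corrected with normexp, taking the negative controls from the detection p-values, then 16 was added as an offset, and intensities were quantile normalized and put on the log2 scale (neqc, limma 3.58.1, R 4.3.3). Tables were made with Python 3.11.15 and pandas 2.3.3. Of the 25697 probes, 23978 had 1 gene symbol, 0 had several and 1719 had none here, and 23962 probes had a gene identifier found in the mouse gene table (GRCm38.p6). Where a gene had several probes, the one brightest on average stands for it. A gene detected on 1 array has a lower bound as its fold ("at least"): its bright level is divided by its dim level, or by the lowest level of any detected probe on the dim array if that is higher (log2 levels of 6.30 in the control, 6.37 in the knockout). A gene counts as higher or lower at 2-fold or more when detected on at least 1 array. Their number limits the precision of the arrays.

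The members and the 13 lists of other genes were chosen with earlier results of these data known. All members and their probes are named, with Med1, Plec, Krt5 and Krt14. In each list the genes at least 2-fold different are named, at most 4 with the largest differences. Genes said to be added, and Trp63, Xist, Eif2s3y, Tln1, Lamb2, Lamc1 and undetected markers were named after their values were seen. With 2 arrays no likeness of pattern between genes was computed. Alternatives covered background correction, offset, normalization, the deposited values, detection, probe averaging and thresholds. The normalization was also run on simulated data, with changes larger than 2-fold set in probes well above background. No smaller change was simulated, so the recovery of differences below 2-fold was not tested.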

Additional observations from a re-analysis of the deposited data

How the results depend on the processing

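With 1 array for each genotype there is no replicate error, and the limit of detection is set by signal over background: 4 of 20 member probes could not be read on either array. No paired analysis was possible because each genotype has a single array. The differences of the 8 anchoring genes kept their sign under all 7 alternatives that give them, and 54 of 56 such values moved by less than the between-probe SD. Those that moved more were Itga6 without background correction (-1.60) and from the deposited values (-1.61). Itga6, Itga3 and Lamb3 had 1 probe each, so averaging detected probes repeated their main values. The count of 1 member at least 2-fold lower and 0 higher held under the 10 alternatives of processing and at 3-fold, and at 1.5-fold it was 2 lower and 1 higher. All 8 were detected on both arrays, so other detection rules could not alter this count or the median of the members. The median of the members, -0.33, ranged from -0.44 (mean of detected probes) to -0.28 (median scaling), and leaving out Itga6, an alternative added after the data were seen, gave -0.23.

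The background counts moved more. Of all genes, 536 were at least 2-fold lower and 686 higher. Without background correction these were 206 and 341, from the deposited values 209 and 343, and with detection on both arrays 299 and 402. At 1.5-fold they were 1345 and 1203 and at 3-fold 204 and 365, as the thresholds' own construction gives. With normexp on the signal alone 324 were lower. Of 130 list medians under alternatives, 106 moved by less than the between-probe SD, 23 by more with the same sign, all in lists of cell type markers, and 1 turned: the immune markers went from 0.32 to -0.74 when detection on both arrays was required, which leaves Cd14 alone. The cause of the other moves was not tested.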
